A study of Mus musculus with 3 samples.

Results

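The interferon response genes followed here are 37 genes that cells switch on when an interferon binds its receptor, out of 32285 genes counted in mononuclear cells of the mouse diaphragm, the main breathing muscle. They were taken as a list of symbols with no threshold on a measured value, although earlier results of these data were known when the list was drawn up. They fall by role into 5 transcription factors, 4 nucleic acid sensors, 9 GTPases and 19 antiviral effectors and regulators. All 37 had at least 1 UMI, the molecular tag that marks 1 captured transcript.

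Type I interferons signal through a receptor made of IFNAR1 and IFNAR2 and the kinases JAK1 and TYK2. The activated factors, among them STAT2, join IRF9 to form a complex that binds the interferon-stimulated response element in the promoters of its target genes. Interferon gamma uses another receptor, acts through the gamma-activated site, and induces IRF1 and many of the GTPases. The products degrade or trap viral RNA, restrict virus entry and budding, attack the vacuoles of intracellular microbes, and include USP18, which damps the receptor again. In uninfected tissue many of these genes are transcribed at a low basal level.

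The study asked how a long high-fat diet remodels the diaphragm and whether thrombospondin 1, a secreted matrix protein encoded by Thbs1, is needed for it. Male mice of 3 groups were profiled, each by 1 library made from the pooled diaphragms of 2 animals that had eaten normal chow up to the age of 2 months. WT CD mice were C57Bl/6J on a control diet for 6 months. WT HFD mice were C57Bl/6J on a high-fat diet with 45% of its kcal from fat for 6 months. KO HFD mice carried the whole-body Thbs1 knockout B6.129S2-Thbs1tm1Hyn/J and received the same high-fat diet for 6 months. No knockout library on the control diet is used here. In every library, cells had been freed with collagenase II and dead cells removed by DAPI sorting. The 3′ ends of transcripts were then counted with 10X Genomics chemistry V3.1.

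The WT CD library held 34312860 UMIs in 4132 cell barcodes, WT HFD 31967976 UMIs in 3774, and KO HFD 36478779 UMIs in 4369, 12275 barcodes in all. Median UMIs per cell were 7632.5, 8041.5 and 7554, in the same order. WT CD shared 7 barcodes with WT HFD and 7 with KO HFD, and the HFD libraries shared 2. Thbs1 itself stood at 136 CPM (UMIs of a gene scaled to 1e6 UMIs of the sum) in WT CD, 202 in WT HFD and 163 in KO HFD. A count at the 3′ end does not read the disrupted part of a gene, so these values do not check the knockout label. The summed level of the 37 genes was 2679 CPM in WT CD, 3085 in WT HFD and 3178 in KO HFD. Since each group is 1 library, no test between groups was possible and the intervals below, all 95%, cover counting error only. In a library as a whole, a shift in the makeup of cells and a shift in RNA per cell cannot be told apart, so levels are given within cell classes.

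Cells were grouped into classes by clustering without the interferon genes, and each cluster was named from marker genes. The largest class was of fibro-adipogenic progenitors (FAP-like, 5059 cells, 41.2% of all), the stromal cells of muscle. It was followed by a related stromal group named here after Tnmd and Thbs4 (1568), muscle stem cells (MuSC-like, 1216), macrophages (1080) and blood endothelial cells (877). These 5 large classes have at least 200 cells in every library. Pdgfra, a defining FAP gene, had a UMI in 90.2% of FAP-like cells. Pecam1, an endothelial adhesion molecule, had one in 88.9% of endothelial-like cells and stood at 998 CPM there, while the leukocyte gene Ptprc stood at 2.02 CPM. The Tnmd Thbs4 group scored highest for tendon markers, but the tendon factor Scx had a UMI in 2.04% of its cells and Pdgfra in 89.3%, so it is called by a leading gene of each of its 2 clusters. Tnmd was among the leading genes of the larger (1140 cells) and Thbs4 among those of the smaller (428 cells).

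The promoters show what many of the genes share in sequence. Windows from 250 bases before to 50 after the start site were in the RefSeq table used here (GRCm38.p6) for 30 of the 37 genes. The letters of the response element core, GAAANNGAAA or TTTCNNTTTC on either strand, were found in 18 of the 30 genes (60%), against 3.99% of the 27025 genes in the table. At least 2 matches were found in 9 genes (30%), against 0.266%. The gamma-activated site, searched as TTCNNNGAA, which reads the same on both strands, was found in 12 genes (40%), against 9.55%. A gamma-activated match overlapped a response element match in Ifitm3 and Bst2. By role, the response element letters were in 7 of 8 GTPases, 8 of 15 effectors, 2 of 2 sensors and 1 of 5 factors. A match describes letters in this window and is not a measured binding site.

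The stretches below show the matches upstream of genes the results turn on, read 5′ to 3′ on the strand of the gene, with the response element letters in capitals. The first stands for a run of 3 overlapping matches, the Ifit genes for a pair of separate ones, and Rsad2 for a single one:
Isg15 (chr4:156200860-156200911, minus strand): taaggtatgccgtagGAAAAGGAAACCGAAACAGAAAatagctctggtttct
Ifit1 (chr19:34640770-34640828, plus strand): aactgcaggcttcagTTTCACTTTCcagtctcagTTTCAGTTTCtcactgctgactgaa
Ifit3 (chr19:34583358-34583431, plus strand): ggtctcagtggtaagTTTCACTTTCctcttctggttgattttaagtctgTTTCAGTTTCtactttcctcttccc
Rsad2 (chr12:26456548-26456587, minus strand): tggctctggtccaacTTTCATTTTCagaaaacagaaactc

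The stretch of Ifit3 is identical, letter for letter, to that of its neighbour Ifit3b at chr19:34607754-34607827. Immunity-related GTPases also carried the letters, as in these 3, of which Igtp and Irgm2 lie next to each other on chromosome 11:
Irgm1 (chr11:48871421-48871465, minus strand): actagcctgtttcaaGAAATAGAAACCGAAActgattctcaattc
Igtp (chr11:58199507-58199546, plus strand): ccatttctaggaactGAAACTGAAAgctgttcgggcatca
Irgm2 (chr11:58214898-58214937, plus strand): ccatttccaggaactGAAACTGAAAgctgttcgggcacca

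Endothelial-like cells had the highest summed level of the large classes. Leaving out Ifitm3, the most abundant gene of the list, the other genes summed to 3556 CPM in endothelial-like cells. The same sum was 1604 CPM in FAP-like cells, 1455 in MuSC-like cells, 1299 in macrophage-like cells and 1152 in the Tnmd Thbs4 group. Of the 37 genes, 29 had their highest level among the 5 large classes in endothelial-like cells, 26 of them with an interval that did not overlap that of the next class. In each of the 3 libraries on its own, 26 of the 29 were again highest there, and Irf9, Irgm2 and Oas1a were so in 2. FAP-like cells were highest for Isg20, Ifi27 and Ifi204, macrophage-like cells for Irf1, Irf8 and Zbp1, and MuSC-like cells for Irgm1 and Igtp. Where a level of 20 CPM was reached in any of these classes, 28 of 36 interferon genes were highest in endothelial-like cells, against 33.0% of all 7802 such genes. That share covers being highest only. The 26 without overlap and the 26 by library therefore have no background here.

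**Figure D1:**
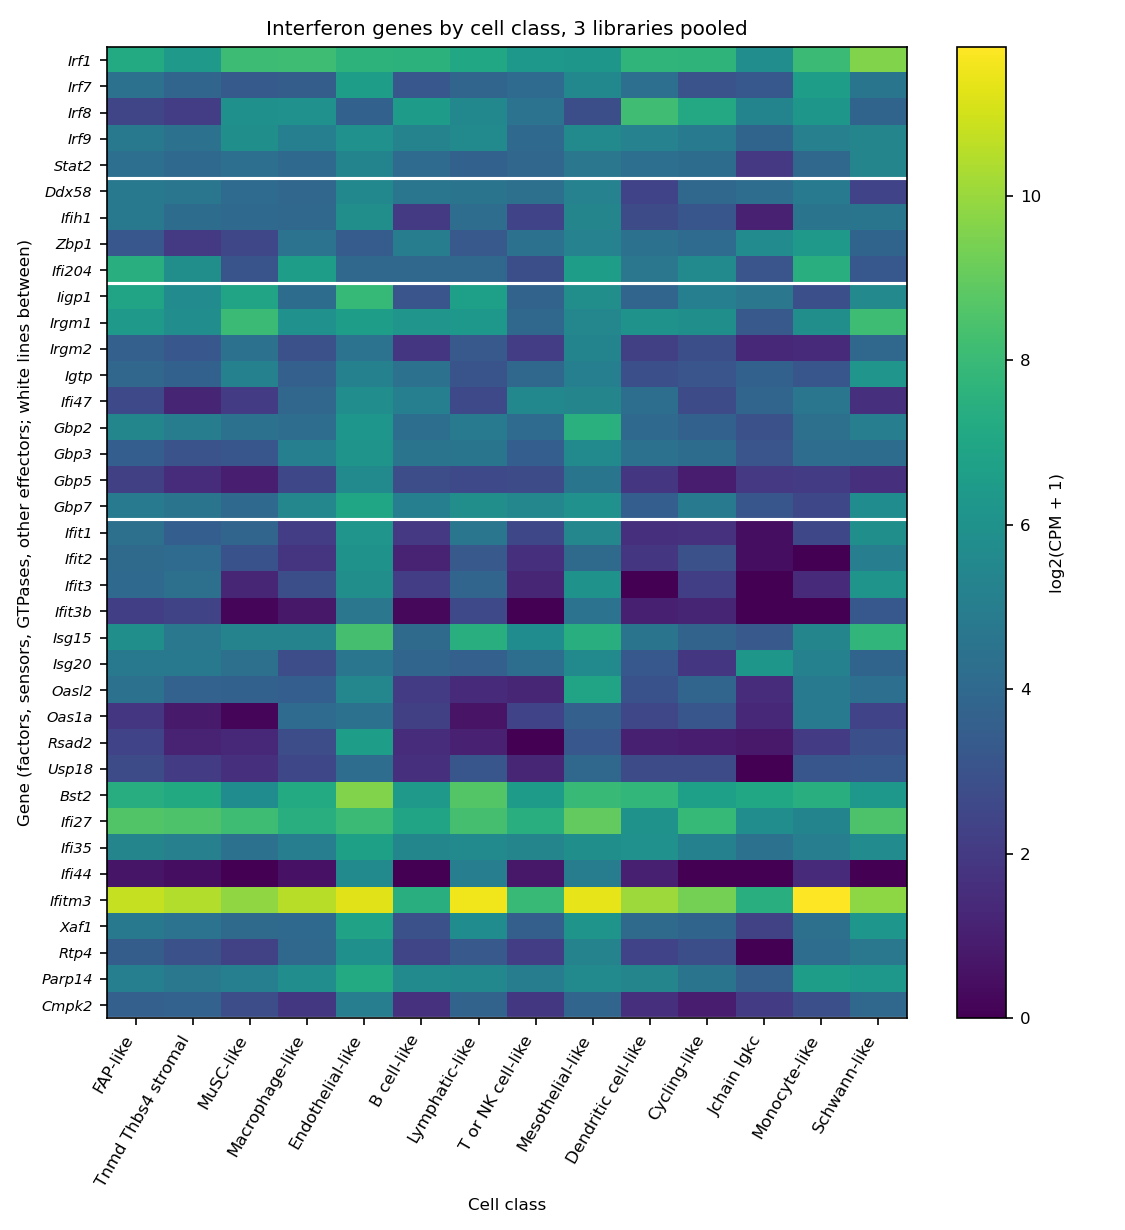
Levels of the 37 interferon genes by role (1 gene a row) in the 14 named classes with at least 100 cells (columns), coloured by log2(CPM + 1) of UMIs summed over the cells of a class and all 3 libraries. The endothelial-like column holds the highest level of 22 genes, and Irf8 peaks in dendritic cell-like cells at 293 CPM.

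Taking all 14 classes with at least 100 cells, endothelial-like cells were highest for 22 genes, 11 of them without overlap with the next class. No share of all genes is given here over 14 classes, so these counts are not read against a background. Schwann-like cells were highest for 5, mesothelial-like cells (the lining of the muscle) for 4, monocyte-like cells for 4, dendritic cell-like cells for Irf8 and the Jchain Igkc cells for Isg20. Some genes were nearly restricted to 1 of the large classes. Rsad2, the antiviral enzyme viperin, stood at 97.6 CPM in endothelial-like cells and at 6.03 in macrophage-like cells, the next large class. Ifi44, an interferon-induced protein, stood at 49.9 CPM against 0.585 in FAP-like cells.

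Of the transcription factors, Irf1, which acts downstream of interferon gamma and other inflammatory signals, was measured in every class. In FAP-like cells it stood at 130 CPM in WT CD, 138 in WT HFD and 174 in KO HFD. In endothelial-like cells it was 179, 163 and 261 CPM in the same order, so KO HFD was the highest library in both classes. Macrophage-like cells had 319, 274 and 279 CPM, with WT CD highest. The highest class was Schwann-like, at 767 CPM over all libraries.

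Irf7 amplifies type I interferon production once it has been induced. It stood in endothelial-like cells at 66.2 CPM in WT CD, 121 in WT HFD and 107 in KO HFD, the control diet being lowest. FAP-like cells had 17.6, 23.5 and 20.2 CPM. Monocyte-like cells, at 93.5 CPM, did not differ from endothelial-like cells, at 98.1, beyond their counting intervals. Irf9, the DNA-binding subunit of the STAT complex, hardly moved in FAP-like cells, at 26.1, 26.6 and 26.7 CPM. Its levels were 56.1, 64.4 and 65.1 CPM in endothelial-like cells, next to 57.5 CPM over all MuSC-like cells, whose interval overlapped.

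Among the sensors, Ifi204 had a pattern of its own. It encodes a DNA-binding protein of the PYHIN family, and it was high in monocyte-like cells (172 CPM) and FAP-like cells (167 CPM), whose intervals overlapped, and low in endothelial-like cells (14.7 CPM) and lower still in MuSC-like cells. FAP-like cells held 139 CPM in WT CD, 173 in WT HFD and 186 in KO HFD, so both HFD libraries lay above the control diet. Macrophage-like cells held 68.9, 118 and 96.1 CPM in that order, with the same lowest library.

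The RNA helicases Ifih1 (MDA5) and Ddx58 (RIG-I), which detect viral double-stranded RNA in the cytosol, were highest among the large classes in endothelial-like cells, at 55.4 and 45.0 CPM. Ifih1 in FAP-like cells was 23.7 CPM in WT CD, 29.6 in WT HFD and 24.8 in KO HFD. Ddx58 was 22.9, 31.8 and 25.3 CPM there. For both helicases WT HFD was the highest library, by less than the 1.5-fold used below for a call.

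The GTPases differed from one another in where they were highest. Irgm1, a regulator of the immunity-related GTPase family, was highest in Schwann-like cells (279 CPM) and MuSC-like cells (264 CPM), with overlapping intervals, and stood at 96.1 CPM in endothelial-like cells. Iigp1, an effector of the same family that attacks the vacuoles of intracellular parasites, was highest in endothelial-like cells at 240 CPM and near equal in MuSC-like (118 CPM) and FAP-like cells (117 CPM). Gbp7, a guanylate-binding protein, stood at 127 CPM in endothelial-like cells, with 62.3 CPM in mesothelial-like cells the next class. In FAP-like cells Gbp7 was 23.3 CPM in WT CD, 33.8 in WT HFD and 26.1 in KO HFD. Gbp2 was highest in mesothelial-like cells, at 180 CPM.

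Of the effectors, Ifitm3, a membrane protein that blocks virus entry, was abundant in nearly every cell. It had a UMI in 99.5% of FAP-like cells, where it stood at 1722 CPM in WT CD, 1679 in WT HFD and 1831 in KO HFD. Monocyte-like cells had the most, 3588 CPM, and B cell-like cells the least of the 14 classes, 169 CPM. Bst2 (tetherin), which holds budding virus at the cell surface, stood in endothelial-like cells at 711 CPM in WT CD, 895 in WT HFD and 626 in KO HFD. Lymphatic-like cells, with 407 CPM over all libraries, were the next class for Bst2. Ifi27, a small hydrophobic protein, was highest in mesothelial-like (498 CPM) and FAP-like cells. In the latter it stood at 362 CPM in WT CD, 413 in WT HFD and 398 in KO HFD.

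Isg15, a ubiquitin-like protein that is joined to other proteins during the response, stood in endothelial-like cells at 322 CPM in WT CD, 338 in WT HFD and 296 in KO HFD. FAP-like cells held 54.6, 62.6 and 57.1 CPM, all of them below each endothelial-like value. Ifit3, which binds viral RNA as part of a complex with other IFIT proteins, stood in FAP-like cells at 14.6 CPM in WT CD, 20.9 in WT HFD and 11.7 in KO HFD. In endothelial-like cells it was 62.0, 61.1 and 41.2 CPM. KO HFD was the lowest library in both classes.

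Transcripts of the interferons themselves were few in number. Of 21 ligand genes in the pathway list that the files hold, 17 had no UMI in any of the 12275 barcodes. Ifng had 94 UMIs in 42 cells, 62 of them in T or NK cell-like cells (43.1 CPM) and 25 in macrophage-like cells (1.98 CPM). Ifnb1 had 3 UMIs in 2 cells, all dendritic cell-like. The receptors were present in the stroma and in vessels. Ifnar1 stood at 55.4 CPM in endothelial-like cells and lower, without overlap of the intervals, in FAP-like cells. Ifnar2 stood at 124 CPM in FAP-like and 132 in endothelial-like cells, with 353 CPM in mesothelial-like cells. For interferon gamma, Ifngr1 stood at 240 CPM in FAP-like and 203 in endothelial-like cells, and Ifngr2 at 41.3 and 22.8 CPM. Ifnlr1, the specific chain of the interferon lambda receptor, had no UMI in the 5 large classes.

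Downstream of the receptors, Jak1 stood at 167 CPM in FAP-like and 150 in endothelial-like cells. The feedback inhibitors Socs1 (69.5 and 41.9 CPM) and Socs3 (364 and 168 CPM) were higher in FAP-like cells.

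The large classes were not uniform inside. Endothelial-like cells formed 2 clusters. The one led by Alpl and Sox17 (570 cells) had a summed level of 878 CPM over 8 core genes of the type I response, which are Ifit1, Ifit2, Ifit3, Isg15, Rsad2, Usp18, Cmpk2 and Rtp4. The one led by Aqp1 and Vwf (307 cells) had 357 CPM. Isg15 differed between them, at 410 and 116 CPM, and Iigp1 hardly did, at 239 and 242 CPM. By library, the core sum of the Alpl Sox17 cluster was 909 CPM in WT CD, 997 in WT HFD and 711 in KO HFD. The Aqp1 Vwf cluster had 191, 332 and 542 CPM, with KO HFD highest. The 2 clusters therefore ranked the libraries differently. With 1 library per group this difference could not be tested.

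In FAP-like cells the clusters differed in the GTPases. The cluster led by Cxcl14 and Mme (1152 cells) held Iigp1 at 219 CPM, Irf1 at 198 and Irgm1 at 129. In the cluster led by Dact2 and Stmn4 (761 cells) Iigp1 stood at 59.0 CPM. A list of 18 genes raised by digestion and handling, led by Fos, summed to 26719 CPM in the Cxcl14 Mme cluster and 10934 in the Dact2 Stmn4 cluster, and its part in these levels was not tested. Macrophage-like cells split as well. The cluster led by Cd209f and Folr2 had Ifi204 at 210 CPM and a core sum of 144 CPM, against a core sum of 43.9 CPM in the cluster led by Mmp12 and Retnla. The makeup of the macrophage class differed between libraries. The Cd209f Folr2 cluster gave 94 of its 232 cells in WT CD, 237 of 407 in WT HFD and 208 of 441 in KO HFD.

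Some cells held transcripts of several core genes at once. Cells with a UMI of at least 4 of the 8 core genes are called high here. There were 327 among 12275 (2.66%), at 2.20% in WT CD, 3.02% in WT HFD and 2.79% in KO HFD. As many cells, 327, had exactly 3 core genes and lay just under the limit, 161 had exactly 4 and 166 had 5 or more. High cells are therefore a range cut from a count of genes, and are not treated as a cell type. In endothelial-like cells 94 of 877 were high (10.7%, interval 8.75 to 13.0). The shares by library were 8.68% in WT CD, 12.0% in WT HFD and 11.6% in KO HFD, with intervals that overlapped. In FAP-like cells 130 of 5059 were high (2.57%, interval 2.15 to 3.04), with 2.57%, 2.95% and 2.26% by library, again overlapping. T or NK cell-like cells had 0 of 228, which allows up to 1.32% by the limit of 3 counts and up to 1.60% by the Clopper-Pearson interval.

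The shares were also taken at equal depth. FAP-like cells had a median of 8837 UMIs and endothelial-like cells 3319, so the class with fewer UMIs had the larger share. With each cell thinned to 3000 UMIs, the share was 8.98% in endothelial-like cells (45 of 501, with 376 shallower cells left out) and 0.526% in FAP-like cells (113 left out). Mesothelial-like cells, with a median of 10206 UMIs, had 27 of 177 high (15.3%), and after thinning 2 of 175 (1.14%). Their high share at full depth is therefore not read as an order. At full depth, the Alpl Sox17 cluster of endothelial-like cells had 14.0% high cells (interval 11.3 to 17.2). The Aqp1 Vwf cluster had 4.56% (2.52 to 7.53), without overlap. Median UMIs were 3449 and 2910 in these clusters, and their shares were not taken at equal depth.

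**Figure D2:**
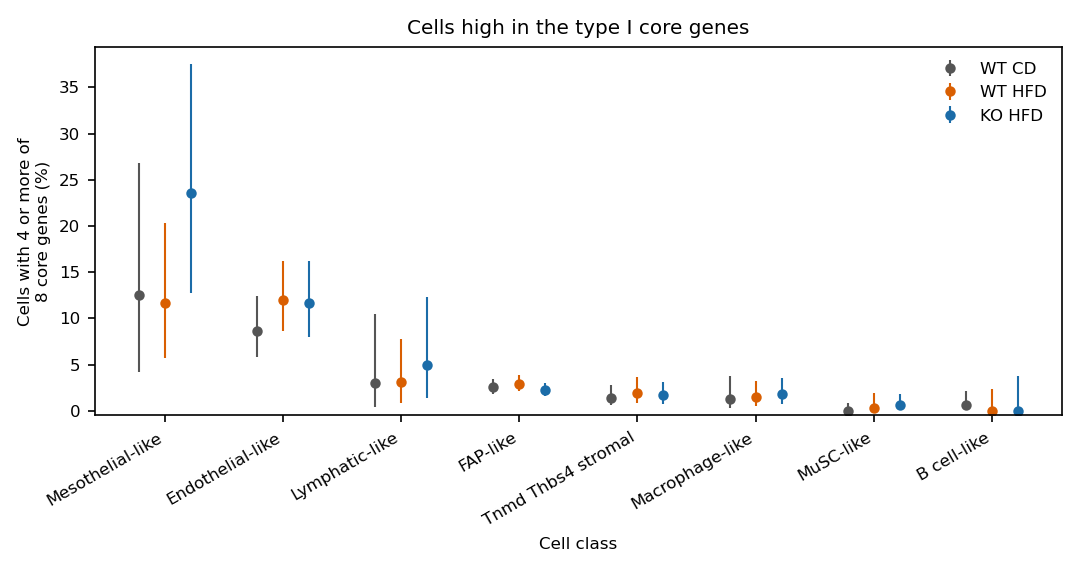
Share of cells with a UMI of at least 4 of the 8 core genes, in percent (vertical axis), in 8 classes by library (colour), with exact 95% binomial intervals for counting error. Endothelial-like cells lie between 8.68% and 12.0% in the 3 libraries and FAP-like cells between 2.26% and 2.95%.

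The other 29 interferon genes were not used to choose the high cells and were compared between high and other cells of the same class. In FAP-like cells 26 of the 29 had a ratio with an interval above 1 and 0 below, and 27 were higher in the high cells of all 3 libraries. The median ratio of the 29 was 3.57. Of all 13657 genes with at least 20 UMIs in the class, a minimum that the 29 also met, 6.51% had an interval above 1, 4.19% one below, and 4.31% were at least 2-fold higher, with a median of 0.984. Of the 29, 23 were at least 2-fold higher. High cells held 3.19% of the UMIs of the class. In endothelial-like cells 27 of the 29 had an interval above 1, 26 were higher in all 3 libraries, and the median ratio was 2.62. Of the 9265 genes with at least 20 UMIs there, 6.66% had an interval above 1. In the same high cells, markers of lymphatic vessels summed to 379 CPM against 56.5 in other endothelial-like cells, with Ccl21a the most abundant, FAP markers to 529 against 1373, and endothelial markers to 6904 against 6156. The part of these in the endothelial ratios was not tested. One gene, Irf8, had an interval below 1 in endothelial-like cells, from 1 UMI in the high cells. In mesothelial-like cells 18 of 28 genes with at least 20 UMIs had an interval above 1, against 5.23% of all such genes, with a median ratio of 1.70. The Tnmd Thbs4 group had 22 of 26, against 4.04%, with a median of 3.73.

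The genes differed widely in how far they followed the core. In FAP-like cells Irf7 stood at 132 CPM in high and 16.7 in other cells, a ratio of 7.94 (interval 6.75 to 9.31). Zbp1, a sensor of Z-form nucleic acid, had a ratio of 8.69, Gbp3 7.67, Oasl2 7.65 and Irgm2 5.95. The subunits Stat2 and Irf9 had ratios of 3.36 and 2.39. Iigp1 had 2.78 (308 against 111 CPM) and Irgm1 2.15. The smallest ratios were those of Ifitm3, Irf1, Isg20, Ifi27, Ifi204 and Irf8. Ifitm3 had a ratio of 1.57, Irf1 1.27 (interval 1.12 to 1.43), Isg20 1.26 (0.93 to 1.68) and Ifi27 0.974 (0.89 to 1.06). Endothelial-like cells kept Irf7 (3.06) and Iigp1 (2.36) above Irf1 (1.34) and Ifi27 (1.23).

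**Figure D3:**
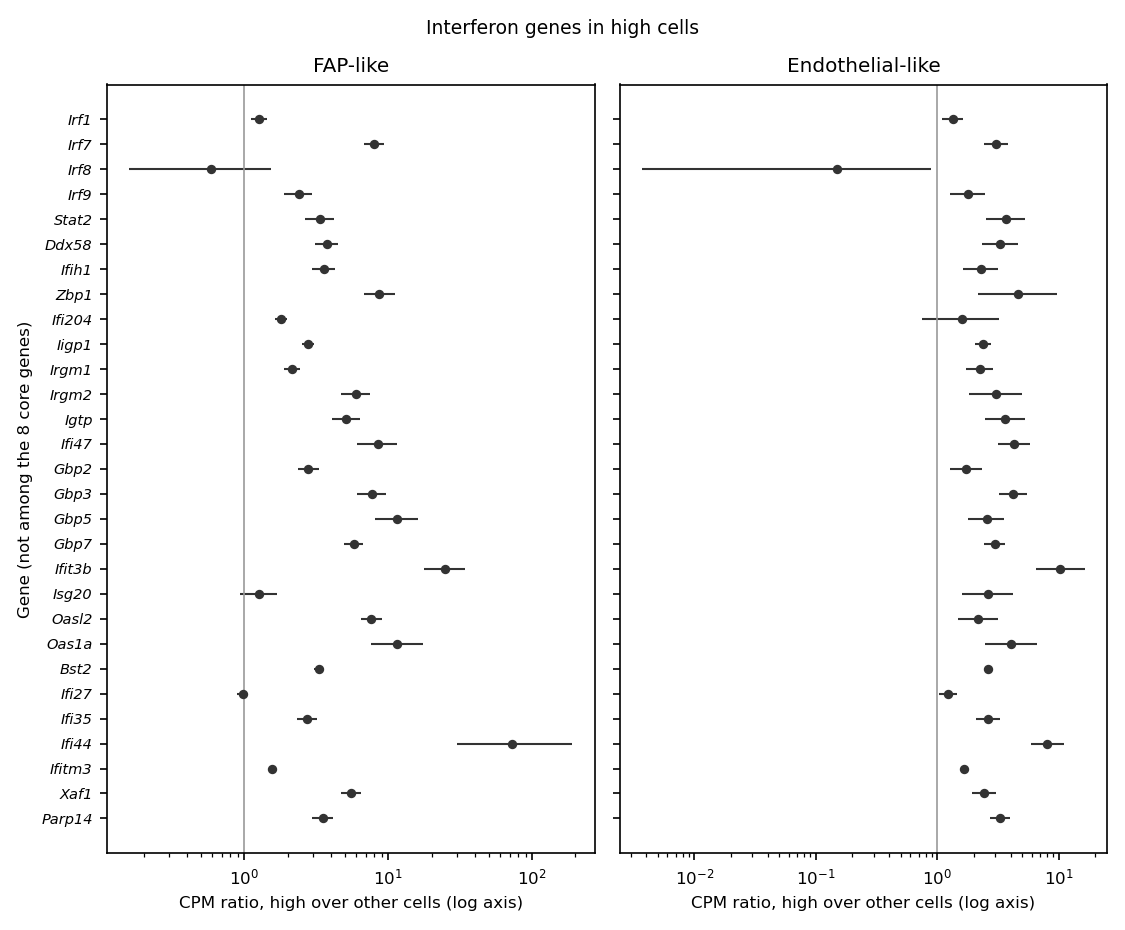
Ratio of the level in high cells to that in other cells of the same class, on a log axis, for the interferon genes not used to choose the high cells, with exact 95% intervals for counting error. In FAP-like cells Irf7 lies at 7.94 and Ifi27 at 0.974.

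Other genes of the interferon pathway were higher in the high cells as well. From the pathway list, 68 of the 89 genes with at least 20 UMIs in FAP-like cells had an interval above 1 and 2 below, with a median ratio of 2.04, beside the 6.51% of all genes given above. Ly6a (Sca-1), a surface protein used to sort stromal progenitors, stood at 2286 CPM in high and 1137 in other FAP-like cells, a ratio of 2.01. Ifi27l2a had a ratio of 2.51, Ly6e 2.35, and B2m, the light chain of MHC class I, 1.43. In endothelial-like cells 53 of 85 had an interval above 1, with a median of 1.74, beside 6.66% of all genes. The Tnmd Thbs4 group had 38 of 79, with a median of 1.91, and mesothelial-like cells 21 of 76, with a median of 1.24. Outside both lists, among genes with at least 50 CPM in the high cells, a minimum that some of them met only there, the ratios in FAP-like cells included those of the chemokine Ccl5 (33.5), Tmem80 (5.36) and the interferon-inducible ubiquitin ligase Rnf213 (4.80). The value of Ccl5 rests on 1 cell, which held 73 of its 74 UMIs in high cells.

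High and other FAP-like cells were also compared in depth, quality and markers of other cells. High cells had a median of 10741 UMIs against 8801 and mitochondrial shares of 2.63% against 2.89%, and doublets were called in 1 of 130 against 1 of 4929. The digestion list summed to a ratio of 0.924 between high and other FAP-like cells, that is, slightly lower in high cells. Its genes differed. Intervals lay above 1 for Socs3, Il6, Cxcl1 and Ccl2, and below 1 for Fos, Fosb, Jun, Egr1, Ier2, Ier3, Dusp1, Hspa1a and Hspa1b. The same sum had a ratio of 0.839 in the Tnmd Thbs4 group, 1.12 in endothelial-like cells and 1.30 in mesothelial-like cells. Most marker lists of other cells were low in both high and other FAP-like cells, but the monocyte, B cell and tenocyte lists were not. The monocyte list summed to 424 CPM in high and 316 in other cells, with Ace its most abundant gene. Its member Plac8 stood at 200 and 67.3 CPM. The B cell list summed to 551 and 513 CPM, with Ebf1 its most abundant gene. The tenocyte list, led by Thbs4, summed to 224 and 411 CPM. The macrophage list summed to 5.44 CPM in high and 7.99 in other FAP-like cells, the dendritic list to 4.08 and 4.41, the T or NK list to 0.679 and 0.515, and the endothelial list to 21.1 and 12.1, with Kdr its most abundant gene. The FAP markers summed to 15148 and 17012 CPM. High cells were spread unevenly over the FAP-like clusters, from 0.623% of the cluster led by Mfap4 and Myoc to 4.86% of the Dact2 Stmn4 cluster. These shares are at full depth, and median UMIs were 8867.5 and 10868 in the 2 clusters. The part of depth in this spread, and of the spread in the ratios, was not tested.

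Genes differed in how unevenly their UMIs fell over cells. With each cell thinned to 3000 UMIs, the variance of a gene over cells divided by its mean is near 1 where only counting spreads it. Of 29 interferon genes with at least 100 UMIs left in FAP-like cells, 5 lay over 2 and 20 under 1.5, with a median of 1.15. The highest were Ifit1 (3.25), Isg15 (3.21), Ifit3 (2.99), Iigp1 (2.55) and Ifitm3 (2.43). Irf1 lay at 1.88 and Irgm1 at 1.65, while Ifi27 (1.19) and Irf7 (1.18) were near the spread of counting. For a gene that varies alike over cells this measure also grows with its level, so no order is read between scarce and abundant genes. In endothelial-like cells 7 of 18 such genes lay over 2, with Isg15 at 4.90 and Bst2 at 3.01. The most Ifit1 UMIs in 1 FAP-like cell were 51. Ifit3 had a UMI in 7.95% of FAP-like cells and, as the lowest share of the 5 large classes, in 0.822% of MuSC-like cells, whose median depth was 5114 UMIs.

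The comparison of WT HFD with WT CD asks how the diet bears on these genes. A gene was compared in a class if it had at least 20 CPM in 1 of the 2 libraries, and called if its ratio was at least 1.5-fold with an interval that excluded 1. Values given for single genes in this comparison and the next are log2 ratios. To see how far a call rested on 1 cell, each was also taken without the cell that held most UMIs of the gene in each library, a step added after the values had been seen. Of 24 calls in both comparisons, 15 held and 9 did not, and those 9 are named where they stand. In 8 of the 24 calls the gene reached 20 CPM in only 1 of the libraries compared, the one in which it was higher, so it could enter only with a difference. These were Ifit1 in MuSC-like cells and Usp18 in endothelial-like cells between the diets. Between the genotypes they were Ifit3 in FAP-like cells, Isg20 in MuSC-like cells, Iigp1 in macrophage-like cells, and Isg20, Irgm2 and Usp18 in endothelial-like cells. In FAP-like cells 22 of the 37 genes passed the minimum and 0 were called in either direction, where 0.661% of the 5751 genes compared were called higher and 0.748% lower. The median log2 ratio of the 22 was 0.30, against 0.09 over all genes compared. Ratios above 0 were seen for 19 of 22 (86.4%), against 73.0% of all genes. Of the 2 libraries compared, Ifit1, Ifit3, Irf7, Oasl2 and Stat2 reached 20 CPM only in WT HFD. They could therefore enter only with a ratio above 0, which bears on the median and on the 19 of 22. The largest ratios were Oasl2 and Gbp7 (both 0.54), Ifit3 (0.52), Ddx58 (0.47) and Irf7 (0.42), while Irgm1 was at -0.17. Of 54 pathway genes compared, Lgals3bp and Slfn5 were called higher (both 0.63) and 0 lower.

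**Figure D4:**
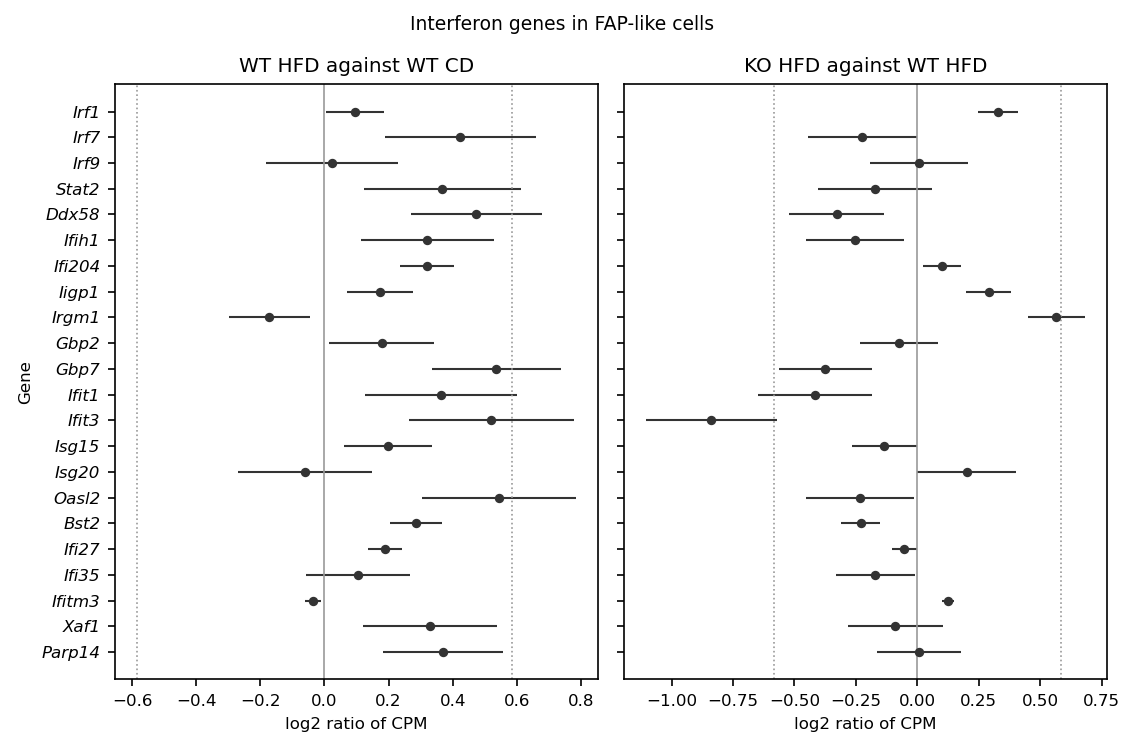
Log2 ratios of the interferon genes compared in FAP-like cells, for WT HFD against WT CD and KO HFD against WT HFD, with exact 95% intervals for counting error. The values of WT HFD against WT CD lie mostly to the right of 0 (19 of 22), and Ifit3 is the gene called in KO HFD against WT HFD, at -0.84. Between the diets Ifit1, Ifit3, Irf7, Oasl2 and Stat2 reached 20 CPM only in WT HFD.

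In endothelial-like cells 34 genes were compared between the diets. Irf7 was called higher in WT HFD (0.88, interval 0.47 to 1.29) and Usp18 (-1.22) and Ifih1 (-0.60, interval -1.11 to -0.10) lower, where 3.86% of all genes were called higher and 3.14% lower. The calls of Usp18 and Ifih1 did not hold without the top cells (-1.04, below the minimum level, and -0.55). The endothelial median was 0.07 against 0.01 over all genes. In MuSC-like cells Ifit1 (2.08, from 11 and 38 UMIs) and Isg15 (0.84) were called higher among 17 compared, against 10.2% higher and 3.36% lower over all genes. Both rested on few cells. In WT HFD, 1 cell held 25 of the 38 Ifit1 UMIs and 1 cell held 21 of the 80 Isg15 UMIs, and without the top cells neither was called (1.19, below the minimum level, and 0.48). In the Tnmd Thbs4 group Irgm1 was called lower (-0.60) among 16, against 1.76% higher and 1.03% lower. Without the top cells it stood at -0.55 and was not called.

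Macrophage-like cells had 5 of 14 genes called between the diets, with 6.9% of all genes called higher and 4.2% lower. Isg15 (0.76), Ifi27 (0.59) and Ifi204 (0.77, interval 0.53 to 1.02) were higher in WT HFD, and the GTPases Irgm1 (-0.60) and Gbp3 (-0.77) lower. Of 60 pathway genes compared there, 6 were called higher and 3 lower. Lgals3bp was called higher (1.55), but over the class it reached the minimum only in WT HFD of the 2 libraries. Within the Cd209f Folr2 cluster it stood at 35.3 CPM in WT CD and 41.8 in WT HFD. It stood at 7.59 and 17.2 within the Mmp12 Retnla cluster, and at 86.5 and 137 within the Saa3 Alox15 cluster. Cxcl9, a chemokine induced by interferon gamma, was 1 of the 3, at 83.0 CPM in WT CD and 24.1 in WT HFD. It was lower in WT HFD within each macrophage cluster, at 83.9 and 23.6 CPM in the Cd209f Folr2 cluster and 68.3 and 36.1 in the Mmp12 Retnla cluster. Isg15 stood at 28.3 CPM in WT CD, 48.0 in WT HFD and 33.9 in KO HFD. In WT HFD, 1 cell held 81 of its 213 UMIs, and without the top cells the ratio was 0.31 and not called. Within the Cd209f Folr2 cluster it was 20.6, 83.0 and 43.4 CPM, and within the Mmp12 Retnla cluster 31.9, 20.7 and 27.8, so the class value did not hold in both clusters. Ifi204 stood at 168 CPM in WT CD and 207 in WT HFD within the Cd209f Folr2 cluster, at 32.9 and 39.6 within the Mmp12 Retnla cluster, and at 106 and 87.6 within the cluster led by Saa3 and Alox15, which had 8 cells in WT CD. None of the 3 clusters reached 1.5-fold. With the clusters weighted alike in both libraries, Ifi204 (0.24) and Ifi27 (0.34) were not called.

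The comparison of KO HFD with WT HFD asks how the loss of Thbs1 bears on them under the diet. It shares the WT HFD library with the comparison of diets, so a high or low value of that library enters both with opposite sign. Called higher in KO HFD in more than 1 class were the interferon-inducible GTPases Iigp1 and Irgm1. Isg20, an RNA exonuclease, was called lower in MuSC-like and endothelial-like cells. Of the 2 libraries compared, it reached the minimum only in WT HFD in both classes. Iigp1 in the Tnmd Thbs4 group stood at 45.3 CPM in WT CD, 33.8 in WT HFD and 75.2 in KO HFD, a log2 ratio of KO HFD to WT HFD of 1.16 (interval 0.87 to 1.45). In MuSC-like cells it stood at 86.4, 80.6 and 160 CPM, a log2 ratio of 0.99 (0.71 to 1.27). Macrophage-like cells had 7.3, 14.6 and 23.7 CPM, a log2 ratio of 0.70 (0.25 to 1.15), which was not called with cells gated one by one (0.49) or without the high cells (0.55). KO HFD was the highest library for Iigp1 in each of these classes.

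Irgm1 in the Tnmd Thbs4 group stood at 54.8 CPM in WT CD, 36.1 in WT HFD and 73.4 in KO HFD, a log2 ratio of 1.02 (0.74 to 1.31). The smaller cluster of this group, where Irgm1 is lower, gave 134 of 566, 176 of 464 and 118 of 538 cells. Within the larger cluster Irgm1 stood at 64.6, 42.6 and 88.1 CPM and within the smaller at 29.3, 27.4 and 31.2. With the clusters weighted alike the log2 ratio was 0.89 for Irgm1 and 1.14 for Iigp1, both called. In MuSC-like cells Irgm1 stood at 228, 206 and 319 CPM, a log2 ratio of 0.63 (0.46 to 0.81), which was not called with cells gated one by one (0.55). FAP-like cells had KO HFD highest without a call. There Iigp1 was 99.5, 112 and 137 CPM (log2 ratio 0.29, interval 0.20 to 0.38) and Irgm1 73.9, 65.6 and 97.0 CPM (0.57, interval 0.45 to 0.68). The makeup of the class moved too, since the Cxcl14 Mme cluster, where both are high, gave 299 of 1526 cells in WT HFD and 496 of 1860 in KO HFD, and the Dact2 Stmn4 cluster, where Iigp1 is low, gave 307 and 235. Within the Cxcl14 Mme cluster Iigp1 stood at 201, 183 and 256 CPM and Irgm1 at 111, 98.0 and 162. In the Gdf10 Col6a5 cluster KO HFD was not the highest for either gene, with Iigp1 at 124, 152 and 126 CPM. Endothelial-like cells had no such call, with Iigp1 at 221, 260 and 237 CPM. Of the pathway list, 1 of 56 genes compared was called higher and 0 lower in FAP-like cells, 2 higher and 1 lower of 51 in the Tnmd Thbs4 group, and 3 higher and 2 lower of 40 in MuSC-like cells. In macrophage-like cells 1 of 60 was called higher and 2 lower, and in endothelial-like cells 1 of 70 higher and 2 lower. The shares of all genes called are given with the interferon genes. F830016B08Rik, another interferon-inducible GTPase of the pathway list, was called higher in KO HFD in FAP-like cells (0.94, from 20.8 to 39.9 CPM), the Tnmd Thbs4 group (1.47) and MuSC-like cells (from 40.9 to 81.9 CPM). Ifi203, of the PYHIN family, was called higher in the Tnmd Thbs4 group (0.80) and in MuSC-like cells (1.14). In MuSC-like cells Ifi203, and in the Tnmd Thbs4 group F830016B08Rik, reached the minimum only in KO HFD. The calls of the other direction were Ly6a (-0.70) in the Tnmd Thbs4 group and Cxcl10 (-0.68) and Ifngr2 (-0.92) in MuSC-like cells. Of these, Ifngr2 reached the minimum only in WT HFD.

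**Figure D5:**
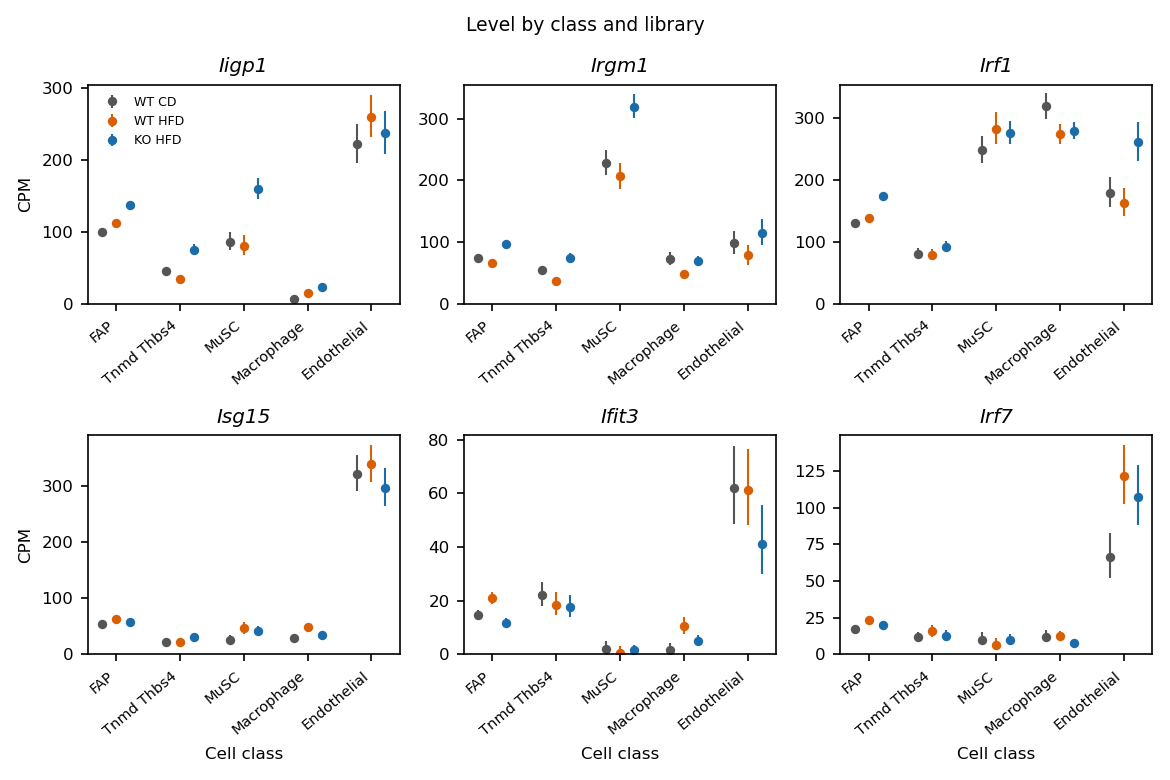
Levels of Iigp1, Irgm1, Irf1, Isg15, Ifit3 and Irf7 in CPM by library (WT CD, WT HFD, KO HFD) in the 5 large classes, with exact 95% Poisson intervals for counting error. Iigp1 in MuSC-like cells is 86.4, 80.6 and 160 CPM, with KO HFD above both WT libraries.

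The background of these calls was as follows. In the Tnmd Thbs4 group 2 of 16 genes compared were called higher and 0 lower, against 1.22% and 0.956% of all genes. In MuSC-like cells 2 of 18 were called higher and Isg20 (-0.76) lower, against 1.82% and 3.21%. In macrophage-like cells 1 of 15 was called higher, against 2.49% higher and 3.4% lower. The digestion list summed in FAP-like cells to 16409 CPM in WT CD, 14988 in WT HFD and 18472 in KO HFD, and in the Tnmd Thbs4 group to 18712, 16638 and 20700, in the same order of libraries as Irgm1. In MuSC-like cells, where Iigp1 was also highest in KO HFD, it summed to 24742, 23730 and 22435, with KO HFD lowest. The part of digestion in the levels was not tested.

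In FAP-like cells Ifit3 was the 1 gene of 22 called, lower in KO HFD (-0.84, interval -1.11 to -0.57), against 0.59% of all genes called higher and 0.26% lower. The median log2 ratio of the 22 was -0.11, against -0.05 over all genes, and 8 of 22 (36.4%) lay above 0, against 34.9%. Without the high cells the median changed sign, to 0.035. Ifit1 (-0.42), Gbp7 (-0.37) and Ddx58 (-0.33) were lower without a call. Ifit1, Ifit3 and Stat2 reached 20 CPM only in WT HFD, so they could enter only as lower in KO HFD. The UMIs of Ifit3 in FAP-like cells were 219 in WT CD, 305 in WT HFD and 193 in KO HFD, in 131, 133 and 138 cells. So the number of cells with a UMI was near equal. The 5 cells with the most UMIs held 72 of them in WT CD, 132 in WT HFD and 37 in KO HFD. In the cluster led by Gdf10 and Col6a5, 5 cells of WT HFD held 92 UMIs. Without the high cells the log2 ratio was -0.19 and not called, but Ifit3 is 1 of the genes that choose those cells, so this removal lowers it by construction. Without the top cell of each library it was -0.68, with both libraries below the minimum level.

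In endothelial-like cells 6 of 35 genes were called between the genotypes, with 3.89% of all genes called higher and 3.57% lower. Irf1 (0.68, interval 0.41 to 0.95) and Usp18 (1.47) were higher in KO HFD, and Isg20 (-1.07), Irgm2 (-0.96), Gbp3 (-0.81) and Gbp5 (-0.63) lower. Irgm2 (-0.97) and Gbp5 (-0.60) were not called without the top cells. The chemokine Cxcl10 of the pathway list was called higher too, reaching the minimum only in KO HFD (2.51, from 5.71 to 32.6 CPM). The median of the 35 was -0.19, against -0.02 over all genes compared. Usp18 stood at 20.9, 9.0 and 24.9 CPM in WT CD, WT HFD and KO HFD, so it was WT HFD that stood apart and the call repeats that of the diets. Irf1, at 179, 163 and 261 CPM, stood apart in KO HFD. The digestion list, which includes no gene of the 37, summed to 12894, 10688 and 13926 CPM in these cells, and its part in the Irf1 value was not tested.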

How the data were processed

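The authors deposited raw UMI counts per gene and barcode, made with Cell Ranger (6.1.0 in the matrix header, 6.1.1 in the submitters' processing notes) on mm10, for 3 libraries. All deposited barcodes were kept. Genes of the interferon and pathway lists were left out of clustering (scanpy 1.11.5, 2000 variable genes, 30 principal components, 15 neighbours, Leiden resolution 1). A cluster was named where its markers averaged a log2 ratio of at least 1 and at least 3 had a UMI in 10% of its cells. The names Tnmd Thbs4 and Jchain Igkc were set after the clusters had been seen, and 1 cluster (323 cells) stayed unnamed. Scrublet doublets (1.26%, 1.09% and 1.33% of WT CD, WT HFD and KO HFD) were marked and kept.

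For each class in each library, counts of its cells were added up and scaled to CPM by their own total. Intervals were exact Poisson (levels), Clopper-Pearson (shares) and conditional binomial (ratios). Values in every library are given for the 3 genes of each role with the highest level and for genes called in FAP-like cells, and other genes were named by their role. Isg15 was added to these after its values were seen. The genes and lists were chosen with earlier results of these data known. Animals of a group were pooled and 1 library per group leaves no test. A last stretch of Oas1a is shared with Oas1g (42.2% of 91-base windows in the last 500 bases) and of Ifit3 with Ifit3b (6.34%), and Igtp and Irgm2 overlap in the annotation, so their counts are less certain. Alternatives covered per-cell gating, cell filters, doublets, scaling (TMM factors of edgeR 4.0.16), minimum, fold and cluster weights. The scripts were tested on simulated data. Some genes are not reported here.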

Additional observations from a re-analysis of the deposited data

How the results depend on the processing

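No paired analysis was possible because each group has 1 library. Of the median log2 ratios of the interferon genes, 69 of 70 alternative values lay near the reported one. Near means between the median lower and the median upper interval limit of the genes compared. The exception was KO HFD against WT HFD in FAP-like cells without the high cells, 0.035, a change of sign. In every comparison but that of the diets in FAP-like cells the range included 0. A change of sign inside the range was not counted. Of 214 values for single called genes, 157 kept the call, 57 lost it and 0 reversed. The setting with no minimum keeps every call by construction, so part of the 157 was fixed in advance. In the Tnmd Thbs4 group the calls of Iigp1 and Irgm1 in KO HFD held in all settings run. Gating of cells one by one was not among these settings. It had no such class and placed 1518 of the 1568 cells with FAP-like cells. In MuSC-like cells both were lost at a fold of 2, and Irgm1 also with cells gated one by one. In macrophage-like cells the call of Iigp1 was lost by gating, without high cells and at a fold of 2. The cause of these differences was not tested.

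Counts of genes called moved by more than 1.5 times as follows. For FAP-like cells the diets gave 4 with no minimum and 1 with clusters weighted alike, and the genotypes 2 by gating, 2 with TMM, 4 with no minimum, 0 at a fold of 2 and 2 with the Tnmd Thbs4 cells joined. For the Tnmd Thbs4 group the diets gave 0 without high cells, 4 with no minimum, 0 at a fold of 2 and 0 with clusters weighted alike, and the genotypes 6 with no minimum. For MuSC-like cells a fold of 2 left 1 (diets) and 0 (genotypes). For macrophage-like cells the diets gave 8 with no minimum, 0 at a fold of 2 and 3 with clusters weighted alike, and the genotypes 0 by gating, 0 without high cells, 7 with no minimum, 0 at a fold of 2 and 2 with clusters weighted alike. For endothelial-like cells the diets gave 5 by gating, 1 at a fold of 2 and 5 with clusters weighted alike, and the genotypes 3 by gating, 3 without high cells and 2 at a fold of 2. The joined classes, the cluster weights outside FAP-like cells and the step without top cells were chosen after seeing the data.

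With at least 3 or at least 5 core genes in place of 4, high cells made up 5.81% or 1.21% of FAP-like, 17.2% or 6.27% of endothelial-like, 28.2% or 7.91% of mesothelial-like and 3.24% or 0.463% of macrophage-like cells. Thinning gave 0.526%, 1.14% and 0.286% of FAP-like, mesothelial-like and macrophage-like cells. The share of a gene's UMIs in its top cells rises as the gene gets scarcer, so these shares are not compared between genes. In FAP-like cells the top 5% of cells held 79.2% of Ifit3, 60.1% of Isg15 and 32.1% of Irf1 UMIs, and after thinning the top 1% held 55.6% of Ifit3 and 12.4% of Irf1. In endothelial-like cells the top 5% held 71.4%, 47.3% and 36.2%, and the thinned top 1% held 10.2% of Irf1. The count of interferon genes highest in endothelial-like cells, 28 of 36, was 27 of 35 by gating, 26 of 35 for the mean over cells and 29 of 36 with the cell filter, without doublets or with all genes in the clustering. Only 670 of 877 endothelial-like cells passed that filter (at least 500 genes and at most 10% mitochondrial UMIs).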

Other observations

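Schwann-like cells, the glia of peripheral nerve, held a cluster with a high level of these genes. It was led by Chl1 and Col20a1 (46 cells) and had a core sum of 691 CPM and 6 high cells (13.0%). Of the 6, 5 came from KO HFD and 1 from WT HFD, and thinned to 3000 UMIs the Schwann-like class held 2 of 72 (2.78%), so the share rests on few cells. Monocyte-like cells (111) were highest for Ifitm3, Zbp1, Ifi204 and Oas1a while none of them was high by the core genes. Cells led by Jchain and Igkc (119, of which 101 came from WT CD) had Isg20 at 76.4 CPM and Ifit3 at 0. Isg20 and Rsad2 stood at 375 and 219 CPM in erythroid-like cells, which number 59 with a median of 1561 UMIs.

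Several interferon-induced genes of the wider list differed between libraries within a class. Cxcl10 in MuSC-like cells stood at 49.3 CPM in WT CD, 147 in WT HFD and 91.9 in KO HFD. F830016B08Rik in endothelial-like cells stood at 4.19 CPM in WT CD and 23.6 in WT HFD. Of these 2 libraries it reached the minimum of 20 CPM only in WT HFD, so it could enter only with a difference. Gbp2b in macrophage-like cells stood at 14.5 CPM in WT CD, 29.1 in WT HFD and 8.89 in KO HFD, and so reached 20 CPM only in WT HFD. It is also a leading gene of the cluster led by Saa3 and Alox15. That cluster held 8 of 232, 56 of 407 and 14 of 441 macrophage-like cells, and within the other clusters Gbp2b was highest in WT CD.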
